A study of Mus musculus with 3 samples.

Results

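The regions described here are pulled-down regions in which unmodified cytosine dominated the nanopore calls. They were selected on the calls themselves: peaks of the 3 replicates on chromosomes 1 to 19 that overlapped by at least 1 bp were merged, the CpG calls of all replicates were summed in each merged region, and a region was kept when it held at least 15 calls, no CpG with 20 or more calls in a replicate, and unmodified C in at least 60% of its calls. Of 13285 merged regions, 9348 held under 15 calls and 13 more were removed by the limit per CpG. The 3924 regions that passed included 333 members (8.49%), and the other 3591 serve as the comparison. The share of unmodified C in the members is therefore a description of how they were chosen and was not tested.

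The libraries are hydroxymethylated DNA immunoprecipitations (hMeDIP) of cerebellum DNA from an 8-week-old female C57Bl6Cr mouse, in which an antibody against 5-hydroxymethylcytosine (5hmC) pulls down fragments before direct nanopore sequencing. There was 1 group of 3 reactions of 1 µg DNA with a mean fragment of 362 bp. Replicate 1 used whole serum and replicates 2 and 3 used IgG-purified antibody, so that antibody and replicate cannot be told apart. Library names point to the same animal throughout, and the spread between replicates does not include that between mice. Replicate 1 stood apart in its number of peaks: on these chromosomes it had 490, while 8506 were listed for the second reaction and 5146 for the third. The pileups held 68673, 101734 and 73834 calls at 28372, 63439 and 46334 CpG sites, in that order, all on the forward strand.

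Most CpGs in mammalian DNA carry 5-methylcytosine (5mC), which TET enzymes oxidise to 5hmC, a mark that is abundant in neurons. CpG islands, short stretches of DNA rich in CpG, are the main exception and commonly stay unmodified, in particular at promoters. Antibody pulldown enriches whole fragments, so that a peak states where fragments were recovered, whereas the nanopore calls state what each cytosine in them carried.

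The sequences below show the kinds of region the members fell into. They are 200 bp stretches of the forward strand of the GRCm39 reference, with CpGs in capitals where at least 75% of the calls summed over replicates were unmodified C. The first pair are copies of a tandem array on chromosome 6, followed by a coding exon of Ajm1 (an apical junction component), the 200 bp upstream of the annotated start of Meiosin (an initiator of meiosis in germ cells, on the reverse strand), an intron of Dync1li2 (a light intermediate chain of the dynein motor), and a nuclear copy of mitochondrial DNA on chromosome 1.
Array, copy with the most calls, chr6:47725736-47725935: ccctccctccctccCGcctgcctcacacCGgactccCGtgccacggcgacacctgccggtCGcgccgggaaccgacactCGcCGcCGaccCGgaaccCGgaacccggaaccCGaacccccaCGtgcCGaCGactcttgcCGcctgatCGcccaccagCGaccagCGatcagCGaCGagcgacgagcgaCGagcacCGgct
Array, copy with the next most calls, chr6:47662515-47662714: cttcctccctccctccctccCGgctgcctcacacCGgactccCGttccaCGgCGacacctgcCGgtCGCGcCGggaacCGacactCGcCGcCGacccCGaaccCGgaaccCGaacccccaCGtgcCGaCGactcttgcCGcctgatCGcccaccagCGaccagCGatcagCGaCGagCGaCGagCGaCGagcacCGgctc
Ajm1, chr2:25467147-25467346: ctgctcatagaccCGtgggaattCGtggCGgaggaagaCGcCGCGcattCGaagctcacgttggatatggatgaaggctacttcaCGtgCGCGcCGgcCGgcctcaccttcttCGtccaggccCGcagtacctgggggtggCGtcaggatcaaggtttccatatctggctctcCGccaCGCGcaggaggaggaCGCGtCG
Meiosin, chr7:18852294-18852493: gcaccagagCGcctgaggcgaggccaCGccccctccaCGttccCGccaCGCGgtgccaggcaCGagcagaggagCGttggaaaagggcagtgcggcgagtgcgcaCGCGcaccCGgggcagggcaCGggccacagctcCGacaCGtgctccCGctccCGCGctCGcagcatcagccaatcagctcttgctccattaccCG
Dync1li2, chr8:105161562-105161761: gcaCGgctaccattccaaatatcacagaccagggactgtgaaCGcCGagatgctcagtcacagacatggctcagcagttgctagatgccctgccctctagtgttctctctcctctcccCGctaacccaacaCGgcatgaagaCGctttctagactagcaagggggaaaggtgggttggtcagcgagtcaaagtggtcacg
Mitochondrial copy, chr1:24651029-24651228: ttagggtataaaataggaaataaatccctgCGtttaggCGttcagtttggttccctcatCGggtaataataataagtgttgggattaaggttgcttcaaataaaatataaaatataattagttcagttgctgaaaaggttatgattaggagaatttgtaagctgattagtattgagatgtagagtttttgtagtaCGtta

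In these windows unmodified C made up 317 of 396 calls in the first array copy and 108 of 108 in the second, 54 of 55 in Ajm1, 51 of 55 upstream of Meiosin, 39 of 43 in Dync1li2 and 18 of 19 in the mitochondrial copy. Windows not shown held 48 of 51 in Zfp783 and 25 of 39 (64.1%) in Tmem121. Windows were placed where a region had the most unmodified calls outside annotated UTRs, so these shares do not stand for the whole regions. The array copies matched at 191 of 200 aligned bases (95.5%) and carried 31 and 30 CpGs, against 8 in the Dync1li2 window and 4 in the mitochondrial copy.

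Summed over members, 11805 of 16477 calls were unmodified (71.6%), 15.4% were 5mC and 12.9% were 5hmC. By replicate, unmodified C made up 72.0%, 72.4% and 70.2% of members' calls, compared with 25.7%, 25.1% and 24.7% in the other regions. Among modified calls of the members, 5hmC accounted for 42.2%, 46.2% and 47.8% in replicates 1 to 3, against 42.3%, 44.2% and 43.7% in the other regions. This value was pulled down by the chromosome 6 array: outside it the members had 53.2%, 50.6% and 52.1%, above the other regions in each replicate, and array members had 32.3%, 36.3% and 39.2%, below them.

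The median member held 25 calls (range 15 to 1507) at 13 CpG sites and had 70% unmodified C. Its length was 393 bp in the median, compared with 503 bp in the other regions. Summing over replicates the highest number of calls at any CpG, which gives the fewest forward reads that can account for the calls, the median was 3 reads for members and 4 for other regions. For 74 of 333 members (22.2%) it was 1 or 2, against 13.8% of the other regions. Calls on the same read are not independent, and exact binomial 95% intervals given below cover counting error only. Calls came from a single replicate in 79 members (23.7%, against 16.1% of other regions) and from all 3 replicates in 87 (26.1% against 35.3%). No 5mC was recorded in 43 members (12.9%, against 0.306% of other regions) and no 5hmC in 24 (7.21% against 0.780%), and 14 members held unmodified C only, which the 60% limit bars in other regions. The limit also favours the first 2 contrasts. Just inside the limit stood regions in Neurl1a (33 of 55 calls), Ski (21 of 35) and Ctbp2/Fgfr2 (18 of 30), each at 60%. Just outside it stood regions in Rims1 (116 of 194, 59.8%), Speg (104 of 174, 59.8%) and Ccdc92 (89 of 149, 59.7%).

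**Figure D1:**
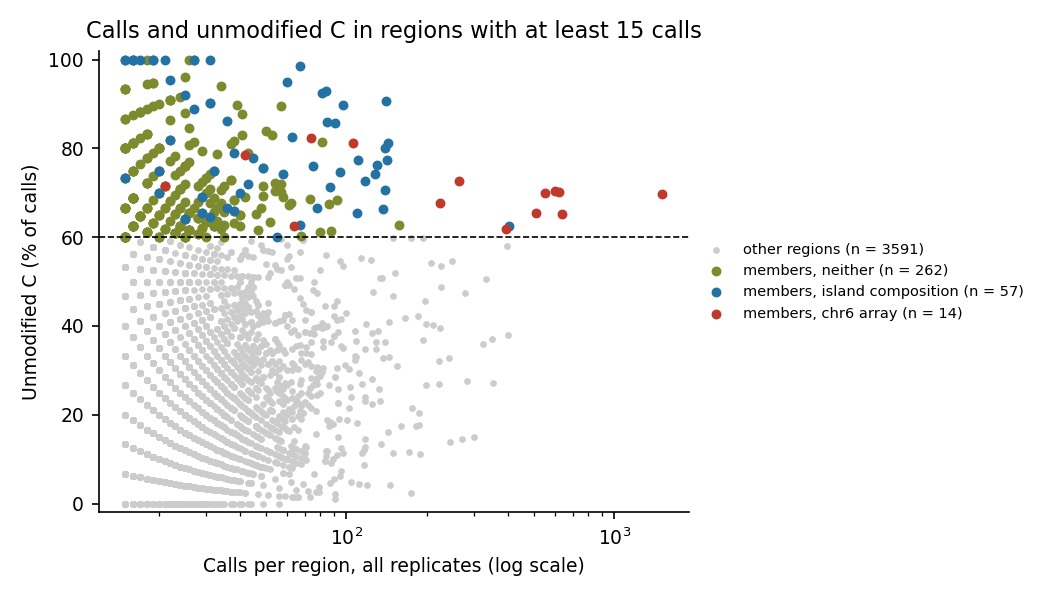
Unmodified C (% of calls) against the calls per region on a log scale for the 3924 regions that passed, with the 60% limit dashed and members coloured by kind. Most members lie at few calls, whereas array members (red) reach 1507 calls at 69.7%.

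The members were sorted into kinds that the calls did not define, although the array was set apart after the data were seen. The tandem array on chromosome 6 held 14, and 57 outside it had CpG island composition (at least 200 bp, GC of at least 50% and an observed/expected CpG ratio of at least 0.6). The remaining 262 had neither. Array members could have island composition as well, and with the array included 68 members had it. Unmodified C reached 69.4%, 70.1% and 66.0% in the array, 77.8%, 78.1% and 74.4% in island members and 72.1%, 70.3% and 71.0% in the rest. The array contributed 34.1% of all calls in members. The shares of calls summed over members and the held-out shares are therefore given with and without it.

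**Figure D2:**
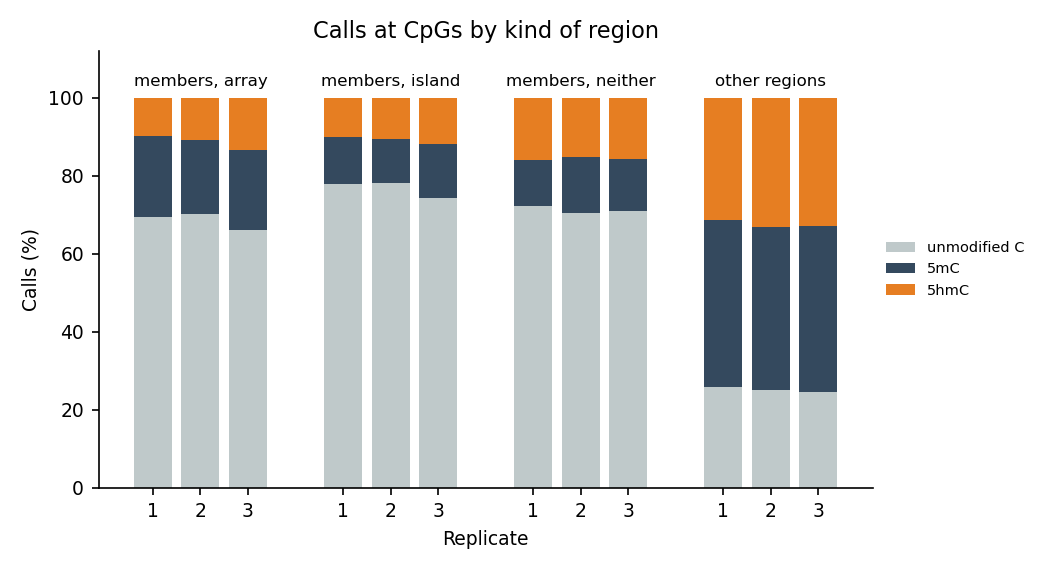
Stacked shares of calls (%) that were unmodified C, 5mC and 5hmC in each replicate, for members of each kind and for other regions. The choice of members at 60% or more of unmodified C also limits their 5mC and 5hmC parts, so the heights of members and other regions (5hmC of 31.4% to 33.1%) are a description.

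A share that was not used in the choice was obtained by selecting regions on the calls of 2 replicates, with the same limits, and reading them in the replicate left out. The regions selected in this way held 64.3% unmodified C in replicate 1 (4186 calls), 60.7% in replicate 2 (4230 calls) and 55.8% in replicate 3 (3387 calls). These calls came from 141 of 289, 133 of 191 and 125 of 244 selected regions, and the others had no call in the replicate left out. Regions under 60% in the selecting replicates held 27.6%, 28.6% and 27.7%. The means were 60.3% ± 4.30 and 27.96% ± 0.569 (SD, n = 3), a difference of 32.3 percentage points ± 4.36 that was positive in 3 of 3 replicates (two-sided exact sign-flip permutation test, p = 0.25, Benjamini-Hochberg adjusted p = 0.417 over 10 comparisons). With 3 replicates this test has 8 assignments and cannot give a p below 0.25, so no comparison here can pass 0.05. Averaging the shares of single regions with at least 5 calls in the replicate left out gave 53.7% against 25.9%. With regions weighted equally, the selected regions thus lay under the 60% limit. Held-out 5hmC was 14.7%, 17.3% and 20.2% in the selected regions and 30.3%, 32.0% and 31.3% in the others, a difference of -13.8 points ± 2.40 (exact permutation p = 0.25, adjusted p = 0.417). Outside the array the selected regions held a mean of 22.1% 5hmC against 31.5%, a difference of -9.38 points ± 2.55. Unmodified C, 5mC and 5hmC are parts of the same calls, so that more unmodified C leaves less room for 5hmC. The differences in 5hmC are therefore not separate from those in unmodified C, and do not show a loss of 5hmC in particular.

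The kinds differed in how far the share held in the replicate left out. Selected array regions held 69.4%, 69.1% and 64.0% unmodified C, compared with 50.0%, 62.2% and 43.0% in array regions that were not selected. Selected island regions held 66.6%, 66.2% and 58.5%, against 30.01%, 32.7% and 28.2% in islands that were not selected. Selected regions of neither kind held 51.5%, 45.5% and 42.4%, against 26.7%, 26.7% and 27.5%. In this last kind the mean of 46.5% ± 4.61 (SD, n = 3) lay under the 60% limit, though above the others in every replicate. Requiring 30 calls in the selecting replicates gave 48.4% for this kind and 65.1% for islands. Outside the array as a whole, the mean was 54.5% ± 4.58 against 27.5% ± 0.241. For 5hmC, selected array regions held a mean of 11.7% against 15.3%, and selected islands 14.4% against 24.4%. In regions of neither kind it was 28.7% against 32.9%, a difference of -4.22 points ± 2.93. These differences between kinds were not tested.

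**Figure D3:**
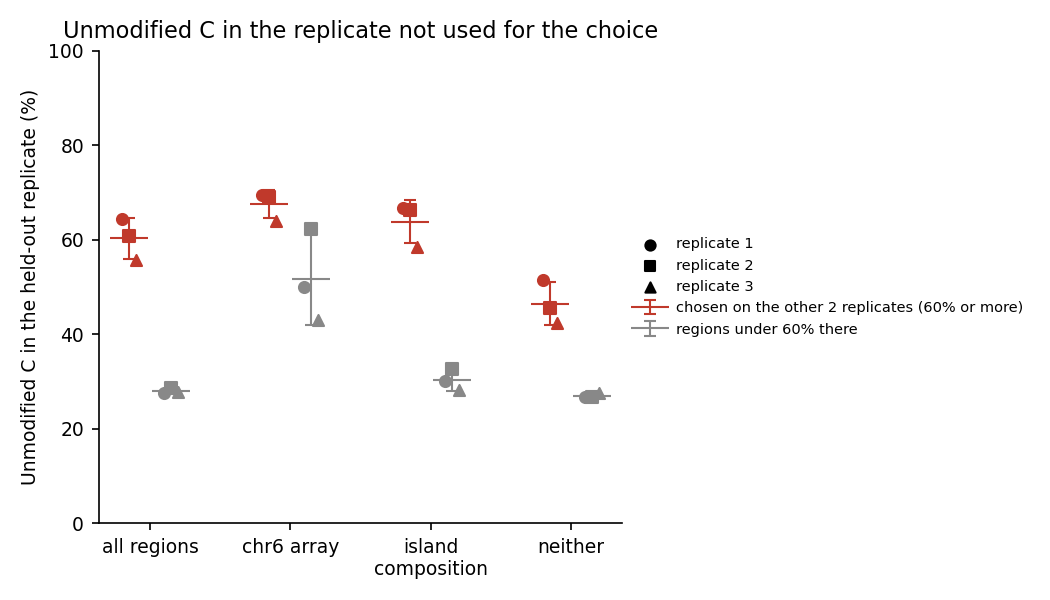
Unmodified C (%) in the replicate not used for the choice, for regions selected at 60% or more on the other replicates (red) and regions under 60% there (grey), with mean and SD over 3 replicates. Red points lie above grey points in each replicate for all kinds, and red means fall from 67.5% in the array to 46.5% in regions of neither kind.

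Of the 333 members, 54 had at least 5 calls in every replicate, and 12 of these lay in the array. Unmodified C was the most frequent call in every replicate in 36 of the 54, and reached 60% in every replicate in 20.

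The array gave the members with the deepest and strongest peaks. It spans chr6:47628721-47754064 between the lncRNA genes Gm40371 and Gm66711 and holds no annotated gene in GENCODE M39. It is 125344 bp long, of which 50000 bp (47663974 to 47713973) are an assembly gap. Repeated 31-mers at least 1000 bp apart recurred most often at a spacing of 4321 bp, and 74.5% of the spacings lay between 4000 and 4600 bp. The RefSeq gene table for the preceding assembly, GRCm38.p6, used here for names and neighbours only, lists Rn4.5s, a gene of the small 4.5S RNA of rodents, among the genes that follow Gm40371. In the array 23 merged regions were found, 22 passed the minimum and 14 were members. The members shared a median of 99.1% of their 31-mers with other array regions, with 10.3% in the least similar. Reads from any copy, including copies within the gap, could have been placed on any similar copy, so that values of single copies are uncertain.

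The region with the most calls, chr6:47724776-47727170, held 1507. Its 627, 547 and 333 calls in replicates 1 to 3 were unmodified at 71.0%, 73.3% and 61.3%. Its peaks had fold enrichments over input of 8.77, 9.36 and 9.76, whereas the median peak of other regions had 4.72, 3.83 and 3.87 in replicates 1 to 3. The region with the highest fold enrichment among members, 11.9 in replicate 1, was chr6:47739696-47742182. Its unmodified share was 58.6%, 79.7% and 52.5% and thus varied more between replicates. The highest unmodified share in the array was 82.4% of 74 calls, at chr6:47653317-47653764. Between members of the array the share ranged from 61.9% to 82.4%.

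Peaks were found in at least 2 replicates in 10 of the 14 array members and in all 3 replicates in 7. By comparison, 25 of the 319 members outside the array had peaks in at least 2 replicates (7.84%) and 1 had them in all 3. The best fold enrichment of a member had a median of 6.24 in the array (2.84 to 11.9) and of 3.83 both in island members and in the rest. A run of a short unit repeated perfectly over at least 20 bp was present in 13 of the 14, and in 12 the unit was made of purines on either strand, such as AGAAGG or GAG, with runs of up to 135 bp. The 8 array regions that passed without being members held 8.33% to 52.0% unmodified C in 18 to 278 calls, so the array was not unmodified throughout. These 8 shared other traits with the array members: all 8 carried such a run, 4 of them with a purine unit, 3 had peaks in at least 2 replicates, and their best fold enrichment ranged from 3.20 to 7.77. Array members had 9.89%, 10.9% and 13.3% 5hmC in replicates 1 to 3.

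**Figure D4:**
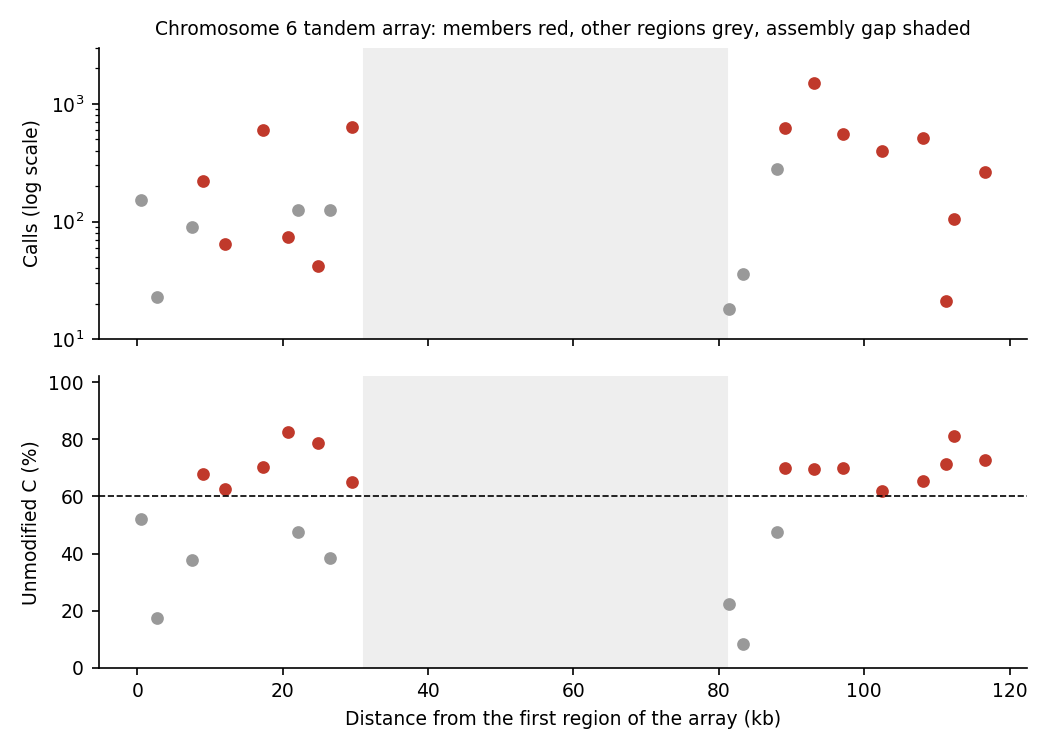
Calls (upper, log scale) and unmodified C (lower, %) of the 22 array regions that passed, by distance in kb from the first of them, with members in red, other regions in grey and the assembly gap shaded. Members stand on both sides of the gap, and so do the grey regions, which held 8.33% to 52.0%.

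Sequence present elsewhere in the assembly was also found outside the array, though in few members. In 22 of 333 members (6.61%) at least 50% of the 31-mers occurred again in GRCm39, and 14 of these were the array members. The other 8 made up 2.51% of the members outside the array, compared with 3.15% of the other regions (113 of 3591). A pair of the 8, in a nuclear segment on chromosome 1, had every 31-mer on the mitochondrial chromosome as well, and none of the 3591 other regions shared a 31-mer with the mitochondrial chromosome. Mitochondrial DNA is present in many copies per cell and is known to carry little CpG methylation. The region chr1:24653523-24653817, over the pseudogene Atp6-ps, held unmodified C in 20 of 20, 2 of 2 and 5 of 5 calls in replicates 1 to 3 (27 of 27, exact 95% interval 87.2% to 100%). The region chr1:24650924-24651505, over the pseudogenes Gm10222 and Gm28439, held 7 of 8, 9 of 9 and 16 of 17. Each had a peak in 1 replicate only, of fold enrichment 5.71 in replicate 1 and 4.20 in replicate 2. Nuclear and mitochondrial fragments cannot be told apart here.

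Of the 57 members with CpG island composition, 22 had the start of a protein-coding gene within 1000 bp (38.6%), compared with 43 of the 186 other regions of that composition outside the array (23.1%), a difference that was not tested. Coding exon was the main feature in 47.4% of these members and in 47.3% of these other regions. Of the 35 members away from starts, 21 were mainly coding exon, 7 intron, 4 UTR, 2 noncoding exon and 1 intergenic. Unmodified C made up 76.5% of 1495 calls at gene starts and 77.5% of 2327 calls away from them. Genes named for members with island composition, at starts or away from them, were chosen for their calls after the values were seen, unless peaks in at least 2 replicates are given.

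Among those away from starts, Ajm1 on chromosome 2 (chr2:25466747-25467820) held unmodified C in 48 of 59, 51 of 67 and 17 of 17 calls. A neighbouring member in the same gene, which lay within 1000 bp of its annotated start, held 26 of 28 and 36 of 59 in replicates 1 and 2. Tmem121, a transmembrane protein gene (chr12:113151492-113152136), held 63 of 76, 14 of 18 and 33 of 48, with peaks in replicates 1 and 3. Every replicate with calls lay above 60% in all 3 regions. In Syt7, a synaptotagmin calcium sensor (chr19:10400037-10400331), the share was 88.5%, 63.9% and 81.4%. Nfix, a nuclear factor I gene of neuronal development (chr8:85432096-85432830, in a UTR), had 79.5%, 80.6% and 58.3%, with peaks in replicates 2 and 3. Replicate 3 was the lowest in Tmem121 and Nfix and the highest in the first Ajm1 region. Single replicates supplied all calls in Hic1, a transcriptional repressor (78 of 84), and Lmtk3, a kinase (57 of 60). Gprin1, a regulator of neurite outgrowth, held 38 of 42 and 37 of 39 in replicates 1 and 2 (92.6%, exact 95% interval 84.6% to 97.2%), and Cntnap1, a protein of paranodal axon junctions, 31 of 31.

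At gene starts the island member with the most calls was chr8:70783014-70784917, where Gdf1 (a growth factor of the TGF-beta family), Cers1 (a ceramide synthase transcribed with it) and Upf1 (an RNA helicase of nonsense-mediated decay) meet. It held 406 calls with 56.9%, 67.2% and 61.4% unmodified C, and peaks in replicates 2 and 3. Meiosin (chr7:18852164-18852727) held 32 of 33 and 96 of 108, with no call in replicate 3. Rmdn2, a regulator of microtubule dynamics, held 66 of 67 calls. Both are genes with their annotated start inside the region, as in 25 members in total (7.51%), against 5.37% of the other regions.

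Members of neither kind numbered 202 away from gene starts, of which 133 were mainly intron (65.8%), compared with 71.1% of the 2796 other regions of this kind. A further 60 lay within 1000 bp of a start without island composition. The latter included Prkar1b, a regulatory subunit of protein kinase A (chr5:139114486-139115304), with 16 of 16, 24 of 27 and 11 of 14 unmodified calls and peaks in replicates 2 and 3. They also included Grm4, a metabotropic glutamate receptor of granule cell terminals (chr17:27721127-27722272), with 58.8%, 27.5% and 81.0% of 34, 40 and 84 calls. The share in Prkar1b stayed above 75% throughout, whereas in Grm4 replicate 2 fell far below the limit. Nfic, a nuclear factor I gene like Nfix, had 38.5%, 68.1% and 60.7% in its intron. Dync1li2 (chr8:105161382-105162581) had 62.5%, 78.6% and 73.3% of 48, 14 and 30 calls, and peaks in replicates 1 and 3. Other members with peaks in at least 2 replicates differed in how even they were, and only a part of them is named here. Smarcal1, a DNA annealing helicase, held 24 of 35 and 16 of 23 unmodified calls in replicates 1 and 2. In replicates 2 and 3, Slc8a2, a sodium/calcium exchanger, held 11 of 14 and 16 of 23, and Ogdh, a citric acid cycle enzyme, 10 of 13 and 24 of 30. These shares all lay above 60%. In Dlgap3, a postsynaptic scaffold, replicate 2 had 18 of 40 (45.0%) and replicate 3 had 31 of 40 (77.5%). Camkk2, a calmodulin-dependent kinase, held 2 of 7, 5 of 7 and 16 of 20. Replicate 2 in Dlgap3 and replicate 1 in Camkk2 were thus below the limit. In all, 35 members had peaks in at least 2 replicates, of which 10 were array and 6 were island members. The member outside the array with peaks in all 3 replicates lay in Tmem151b and had island composition. It held 38 of 42 and 57 of 86 unmodified calls in replicates 1 and 2, and no call in replicate 3.

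Compared with the other regions in the same replicate, members had island composition more often. Among regions with a peak in the replicate the share was 31.03% against 10.5% in replicate 1 (29 members), 23.8% against 4.56% in replicate 2 (223 members) and 20.2% against 6.03% in replicate 3 (124 members). The difference of 17.96 points ± 3.38 (SD, n = 3; exact permutation p = 0.25, adjusted p = 0.417) fell to 10.997 points ± 4.32 without the array and stayed positive in every replicate. Median CpG density followed, at 3.71, 2.96 and 3.10 per 100 bp in members and 2.56, 2.37 and 2.58 in other regions. Without the array the difference was 0.415 per 100 bp ± 0.0900. The sizes depended on the limits: at a minimum of 30 calls the differences were 31.9 points and 1.78 per 100 bp, while island limits of 55% GC and a ratio of 0.65 gave 11.3 points.

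Gene starts gave no common direction between replicates. Pooled over replicates, 82 of 333 members (24.6%) and 17.9% of other regions had a protein-coding start within 1000 bp. By replicate, the shares were 6.90% of members and 22.2% of other regions in replicate 1, but 26.9% against 17.9% in replicate 2 and 22.6% against 18.5% in replicate 3. The mean difference of -0.736 points ± 12.8 (exact permutation p = 1) became 6.54 without replicate 1, whose 29 member regions with a peak were the fewest. Outside the array and pooled over replicates, unmodified C, which the choice had used, made up 77.3% of members' calls under 500 bp from a start, 69.9% from 500 to 2000 bp, 72.9% from 2000 to 10000 bp and 73.4% beyond, against 30.3%, 25.7%, 24.4% and 23.7% in the other regions.

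Tandem runs of at least 20 bp were found in 27.6%, 16.1% and 17.7% of members and 10.9%, 12.7% and 9.46% of other regions, but this rested on the array. Without it the shares were 4.55%, 11.4% and 9.73% against 9.80%, 12.4% and 9.29%. At an unmodified share of 75% the difference, 9.47 points for all members, was 0.339. Of the 34 runs in members outside the array, 16 were CA or GT repeats (5.02% of these members, against 4.37% of other regions). Purine units were present in 3 of these members (0.940%) against 1.92% of other regions.

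**Figure D5:**
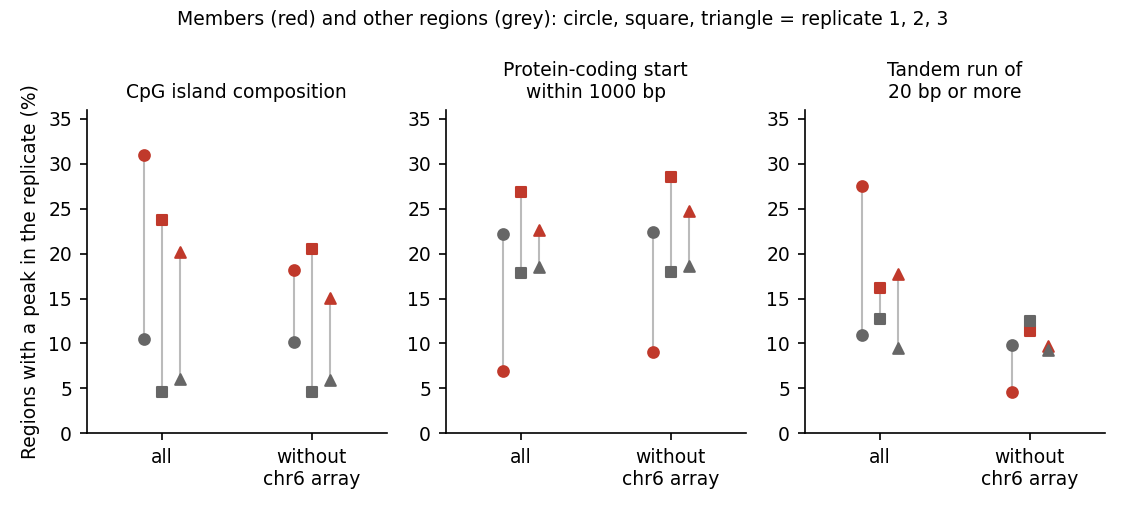
Share (%) of regions with a peak in the replicate that had island composition, a protein-coding start within 1000 bp, or a tandem run of at least 20 bp, for members (red) and other regions (grey), with all regions and without the array. Island composition is higher in members in all 3 replicates on both sides, gene starts have no common direction, and the excess of tandem runs is absent without the array.

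Median fold enrichment was 4.72, 3.83 and 3.87 in replicates 1 to 3 for members and for other regions alike. Many peaks of a replicate shared the same value, such as 3.82915 in replicate 2. Equal medians can therefore be ties, and they do not show that the pulldown was equally strong. Median peak width was 440, 453 and 302 bp in members and 358, 526 and 359.5 bp in other regions (exact permutation p = 1). Reads without a usable call at a CpG made up 7.46%, 9.01% and 6.61% in members and 9.70%, 8.97% and 7.25% in other regions (exact permutation p = 0.5, adjusted p = 0.714). Members were found in at least 2 replicates less often in each replicate, in 51.7%, 13.9% and 25.8% against 54.4%, 23.4% and 34.0%. Without the array the difference was -15.2 points ± 2.41 (exact permutation p = 0.25), but with peaks of fold enrichment 4 or more it turned to 9.55 points higher in members.

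Regions dominated at the same 60% limit by another state were fewer for 5hmC (184) and more numerous for 5mC (677). Island composition averaged 24.99% ± 5.54 (SD, n = 3) in members, 1.25% ± 1.20 in 5hmC-dominated and 10.7% ± 1.28 in 5mC-dominated regions. CpG density averaged 3.26, 2.17 and 2.77 per 100 bp in the same order. The median fold enrichment of each replicate, averaged over replicates, was 4.14 ± 0.504 in all 3 sets, where equal medians can again be ties.

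Few members lay at genes of the lists considered. None lay at genes listed for granule neurons, Purkinje cells and interneurons, glia, clustered protocadherins, DNA methylation or imprinting, where the 3924 regions held 1 to 7 per list. Developmental factors had 2 members (0.601%, against 0.943% of the 3924), Foxo3 with 66.7% of 48 calls and Pou6f1 with 68.8% of 16. The housekeeping list had 3 (0.901% against 0.841%): Polr3gl, a subunit of RNA polymerase III, with 19 of 19 calls, Ndufa13, a subunit of mitochondrial complex I, with 70.7% of 140, and Rps6kc1, a kinase that matched a ribosomal name by its letters. Zinc finger genes named Zfp had 6 (1.80% against 1.53%), led by Zfp783 with 87 of 97 calls and Zfp316 with 86 of 111.

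Promoter motifs were searched as exact letters on both strands in 300 bp around the summit of the strongest peak. The GC box GGGCGG occurred in 17.1% of members and 11.6% of other regions, but among regions of island composition in 24.6% of members and 26.9% of others. The CCAAT box (CCAAT) occurred in 23.4% against 28.7%, the TATA box (TATAAA) in 7.81% against 10.4% and the E-box (CACGTG) in 10.8% against 8.47%. The ETS site (CCGGAAG) occurred in 4.80% against 3.23%, while the cores of NRF1 (CGCATGCG, 0.601% against 0.585%) and YY1 (AAGATGGCG, 0.601% against 0.529%) were rare in both. The CGCG element (TCTCGCGA) occurred in no member and in 1 other region. Within island composition the direction turned for the TATA box, 8.77% of members against 5.91% of others, and the E-box, 8.77% against 10.8%. It also turned for the ETS site (1.75% against 5.38%) and the YY1 core (1.75% against 2.69%). The CCAAT box (22.8% against 24.7%) and the NRF1 core (3.51% against 1.08%) kept their direction. Most of these directions rest on few of the 57 island members. The TATA box and the E-box occurred in 5 each, the NRF1 core in 2, and the ETS site and the YY1 core in 1 each. These shares were not tested.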

How the data were processed

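The deposited files are peak lists and CpG pileups of 3 hMeDIP libraries. According to the methods, reads were base-called with Dorado 0.5.1, aligned to mm39 with minimap2 2.24, and peaks called per replicate against input with MACS2 2.2.6. The authors' peak lists hold a fold enrichment (a ratio to local background), the −log10 of p- and q-values and a display score. The authors' pileups from modkit 0.2.8 hold counts of 5hmC, 5mC and unmodified calls per CpG and the percent modified. Counts were used, with the fold enrichment. The −log10 values, score and percent were not used.

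Peaks were merged and calls summed as stated in the report. Gene features came from GENCODE M39 and sequence from GRCm39, where 100% of the call positions were CpG. A search of 31-mers covered the whole assembly on both strands. Members and other regions were compared within each replicate, and differences tested by two-sided exact sign-flip permutation over 3 replicates, adjusted over 10 comparisons. The members and gene lists were chosen with earlier results of these data known. The rule for naming covered members with peaks in at least 2 replicates, the 10 with most calls and the 10 with the highest fold enrichment. Not all of these are named in the report. Alternatives covered call minimums, limits, peak strength and replicates left out. Functions were tested on simulated data. Tables were handled with pandas 2.3.3 and numpy 2.4.6 under Python 3.11.15, intervals computed with scipy 1.17.1, sequence read with pysam 0.24.0, and plots drawn with matplotlib 3.10.9.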

Additional observations from a re-analysis of the deposited data

How the results depend on the processing

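The number of members depended on the limits: 333 became 558 at a minimum of 10 calls, 121 at a minimum of 30, 602 at an unmodified share of 50%, 123 at 75% and 106 with peaks of fold enrichment 4 or more, and lay between 132 and 285 with a replicate left out (132 without replicate 2, 218 without replicate 3). The held-out shares, CpG density, island composition and unusable calls kept their direction under all alternatives run, but not all kept their size. Held-out unmodified C ranged from 26.9 points without the array to 34.8 at 30 calls. Held-out 5hmC ranged from -9.38 points without the array to -15.6 at 30 calls. Island composition (17.96 points) became 31.9 at 30 calls, 11.3 at 55% GC and a ratio of 0.65, and 10.997 without the array. CpG density (0.754 per 100 bp) became 1.78 at 30 calls, 0.444 around the summit and 0.415 without the array. Unusable calls (-0.948 points) became -1.48 at 30 calls, -1.82 at 75%, -1.88 at fold enrichment 4 or more and -0.300 without replicate 1. The tandem difference (9.47 points) became 0.339 at 75%, 18.7 at 30 calls, 17.1 at fold enrichment 4 or more, 6.06 with runs of 12 bp or more and 5.86 without replicate 1, and turned to -1.94 without the array. The difference at gene starts turned positive at 75% (0.810 points), within 500 bp (0.131), for all annotated genes (1.46) and without the array (1.16), and ranged from -5.62 to 6.54 with a replicate left out. It was -4.34 points at 30 calls and -4.29 at fold enrichment 4 or more (-0.736 with the limits used). Peak width turned to 34 bp wider in members at 30 calls and 14.3 bp at fold enrichment 4 or more, was -112.5 bp at 75% and -38.3 bp without the array (-16.2 bp with the limits used), and ranged from -65.25 to 12.25 bp with a replicate left out. The share found in at least 2 replicates (-6.78 points) turned to 9.55 points higher in members at fold enrichment 4 or more, and was -25.2 at 75%, -15.2 without the array and -3.82 with an overlap of 50% of the shorter peak. The difference in median fold enrichment, which rounded to 0, was -0.128 at 30 calls, -0.0295 at 75%, 0.0282 at fold enrichment 4 or more and -0.00380 without the array, and between -2.5e-05 and 0 with a replicate left out. The causes were not tested. Leaving out the array, counting by replicates with calls or by forward reads, and removing regions found elsewhere in the assembly were chosen after seeing the data. No alternative gave a value for the gene lists and motifs. Each test compares members with other regions within replicates and is paired by replicate. Depth limits single members, whose calls need, in the median, at least 3 forward reads.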

Other observations

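On chromosomes X and Y, which the report leaves out, 54 merged regions were found and 22 passed the minimum. Unmodified C made up at least 60% of the calls in 1 of these (4.55%), which did not lie on Y.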
